A study of Mus musculus with 5 samples.

Results

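Heat shock proteins and their DNAJ co-chaperones were followed in liver RNA of Fra-1hep mice and control mice. The genes were taken by symbol: those beginning with Hspa, Hspb, Hspd, Hspe, Hsph or Hsp90, and those beginning with Dnaja, Dnajb or Dnajc. A RefSeq gene table (GRCm38.p6) held 88 such symbols, of which 70 had a named probe, among 19752 genes named on the array. Of these 70 genes, 59 gave enough signal to be tested, among 13540 named genes and 21527 features tested in all. The other 11 (Dnajb3, Dnajb7, Dnajb13, Dnajc5b, Dnajc5g, Dnajc6, Dnajc27, Hspa1l, Hspa12a, Hspb3 and Hspb7) were above background on at most 2 of the 5 arrays and have no change given here. The 18 symbols with no named probe were 16 pseudogenes, Dnajb5 and Hspa1b.

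Fra-1, encoded by Fosl1, is a subunit of the AP-1 transcription factor, and Fra-1hep mice overexpress it in hepatocytes, per the title of the study. They are C57BL/6J mice, and the controls are labelled C57BL/6J wt. Both groups were 26 to 28 weeks old and had received a high-fat diet, with 45% of energy as fat, from 4 weeks of age. Each of 4 arrays set liver RNA of 1 Fra-1hep mouse, in Cy5, against a pool of 5 control mice, in Cy3; a further array set a Fra-1hep pool, in Cy3, against the control pool, in Cy5. The sources used here give neither the promoter that drives the transgene nor the mice that entered the Fra-1hep pool. If that pool was made from the same 4 mice, it adds no animals. All values below are log2 ratios of Fra-1hep over control, and the estimate for a gene is the mean of 2 numbers, the mean of the 4 mice and the value of the pool, given ± its standard error (SE). The control pool is 1 control sample, so the tests leave out the spread among control mice.

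Chaperones bind unfolded protein and keep it from aggregating. HSP70 proteins (Hspa) do so in an ATP cycle that J-domain proteins (Dnaja, Dnajb, Dnajc) start by handing over a client and stimulating ATP hydrolysis; HSP90 proteins act later on clients such as kinases and steroid receptors; small heat shock proteins (Hspb) hold clients without ATP; and Hspd1 with Hspe1 forms the folding cage of the mitochondrial matrix. In the cytosol heat shock factor 1 (Hsf1) induces many of these genes through heat shock elements, while chaperones of the endoplasmic reticulum (ER) are induced by the unfolded protein response through ER stress response elements. In liver, secretion of plasma proteins places a constant load on the ER set.

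These 2 kinds of control element are printed for the genes on which the results turn: the 2 members that moved most, Hspb1 and Dnaja4, the heat-inducible Hspa1a, the mitochondrial Hspe1, and the 3 members that hold an ER stress response element. Sequences are RefSeq promoters (GRCm38.p6), read 5′ to 3′ on the strand of the gene, with the matched element in capitals. Of the 70 genes, 56 had a promoter entry, which runs from 250 bases before to 50 bases after the start of transcription. The first 4 sequences lie at chr5:135887762-135887869 (Hspb1, + strand), chr9:54699429-54699554 (Dnaja4, + strand), chr17:34972213-34972300 (Hspa1a, - strand) and chr1:55088019-55088116 (Hspe1, + strand).
Hspb1: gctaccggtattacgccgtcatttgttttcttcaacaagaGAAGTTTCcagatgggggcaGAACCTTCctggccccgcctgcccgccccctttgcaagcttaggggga
Dnaja4: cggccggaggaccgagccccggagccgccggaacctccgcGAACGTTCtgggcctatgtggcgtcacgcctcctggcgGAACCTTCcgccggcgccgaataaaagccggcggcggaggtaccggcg
Hspa1a: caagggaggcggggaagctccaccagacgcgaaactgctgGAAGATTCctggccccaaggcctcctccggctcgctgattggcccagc
Hspe1: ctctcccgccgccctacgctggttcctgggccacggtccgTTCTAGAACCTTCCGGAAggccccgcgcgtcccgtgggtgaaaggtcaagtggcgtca
Hspb1 and Dnaja4, which went in opposite directions, each held 2 matches of the 2-unit element, from position -117 to -90 relative to the start of transcription in Hspb1 and from -90 to -45 in Dnaja4.

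The ER stress response element was found at chr2:34771985-34772083 (Hspa5, + strand), chr10:86705493-86705694 (Hsp90b1, - strand; 2 matches, the second on the opposite strand) and chr14:118937787-118937885 (Dnajc3, + strand).
Hspa5: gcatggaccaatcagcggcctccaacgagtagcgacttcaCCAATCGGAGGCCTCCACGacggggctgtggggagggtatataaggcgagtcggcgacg
Hsp90b1: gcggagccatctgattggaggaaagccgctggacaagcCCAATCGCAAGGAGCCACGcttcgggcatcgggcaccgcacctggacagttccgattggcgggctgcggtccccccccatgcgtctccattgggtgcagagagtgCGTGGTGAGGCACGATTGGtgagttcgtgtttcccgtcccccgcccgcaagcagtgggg
Dnajc3: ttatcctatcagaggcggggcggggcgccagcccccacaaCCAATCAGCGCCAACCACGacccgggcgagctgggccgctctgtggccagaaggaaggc
Both strands were searched. The 2-unit heat shock element (GAANNTTC or TTCNNGAA) was in 15 of 56 member genes (26.8%) and in 17.0% of all 27025 genes with an entry. The 3-unit form (GAANNTTCNNGAA or TTCNNGAANNTTC), which always contains the 2-unit form, was in 4 of 56 (7.14%: Dnajb6, Hspd1, Hspe1 and Hsph1) and in 0.662% of all genes. The ER stress response element (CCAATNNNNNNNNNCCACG) was in 3 of 56 (5.36%) and in 0.137% of all genes. The AP-1 site TGAGTCA was in 1 of 56 (1.79%), Hspa5, against 5.95% of all genes. A match describes the letters in this window and does not show that a factor binds there.

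Most of the family moved little, and 2 genes stood out in size. Hspb1, the small heat shock protein HSP27, fell 2.89-fold, and Dnaja4, a cytosolic J-domain co-chaperone of HSP70, rose 1.81-fold. Of the 59 tested members, 5 rose, 15 fell and 39 did not pass (limma, Benjamini-Hochberg adjusted p of 0.05 over all 21527 features). The counts fell to 2 higher and 7 lower when a spread for the control pool was added, and to 2 and 9 with median centring in place of loess; the count of higher members was 3 without mouse 3 and 3 without mouse 4. The share of members called was 33.9%, beside 26.6% of all features in either direction, 11.2% of features higher and 15.4% lower. The median member lay at -0.08 and the median feature at -0.0034. Changes past 0.5 in size were found in 3 of 59 members (5.08%) and in 7.82% of features.

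**Figure D1:**
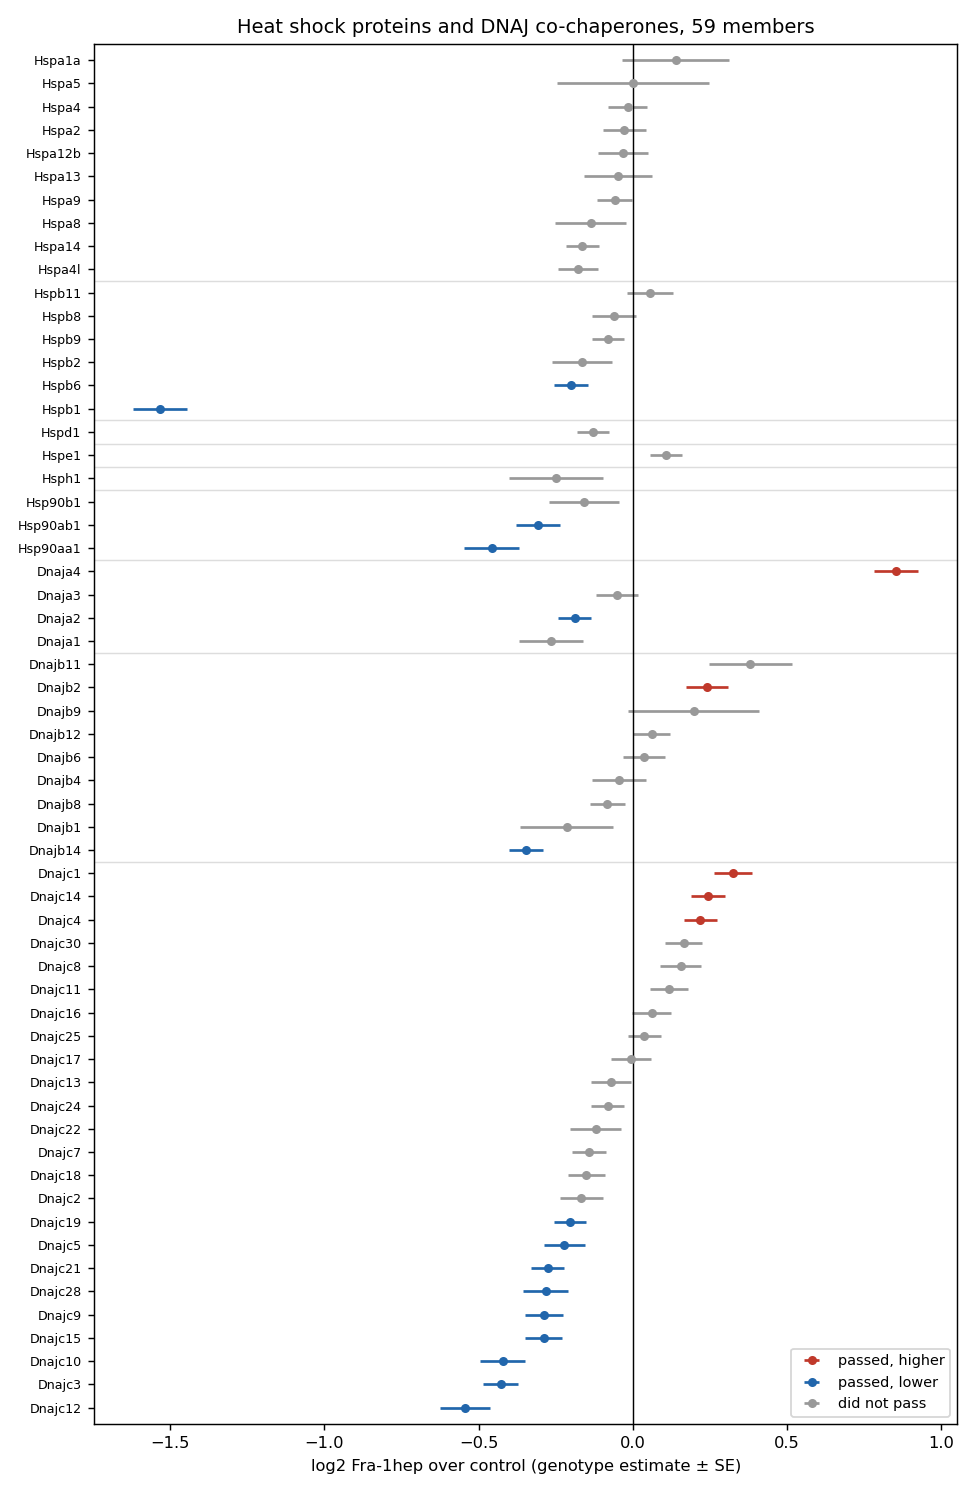
Genotype estimate of log2 Fra-1hep over control (x axis) ± SE for each of the 59 tested members, grouped by family; red and blue points passed the threshold as higher and lower, grey points did not pass. All 10 Hspa members are grey and lie within 0.18 of 0, Hspb1 at -1.53 and Dnaja4 at 0.85 lie farthest out, and the Dnajc family holds 9 blue and 3 red points.

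The families are given beside the 26.6% of all features called; each holds few genes. In the Hspa family 0 of 10 passed (limma; 2 at an unadjusted p of 0.05, Hspa14 and Hspa4l), with a median of -0.04. In the Hspb family 2 of 6 fell (median -0.12), and in the Hsp90 family 2 of 3 fell (median -0.31). Hspd1, Hspe1 and Hsph1 did not pass. Dnaja had 1 higher and 1 lower of 4 (median -0.12), Dnajb 1 higher and 1 lower of 9 (median 0.04, but -0.04 with no filter on dim probes), and Dnajc 3 higher and 9 lower of 24 (median -0.13, but 0.02 without the swapped array). Heat shock proteins proper gave 4 calls among 22 genes (18.2%), all lower, and DNAJ proteins 16 among 37 (43.2%), 5 higher and 11 lower. Whether these shares differ was not tested.

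The array of mouse 1, the only one on its slide, stood apart in signal: 54.7% of its spots were well above background in Cy5 and 61.5% in Cy3. The other 4 arrays shared a second slide and had 47.2% to 51.1% in Cy5 and 47.7% to 50.2% in Cy3. Outlier spots numbered from 3 in mouse 1 to 87 in mouse 2, of 62976. Each of the 59 members was well above background on every array in the Fra-1hep and the control channel. Fosl1 itself was near background: its probe read -0.37, -0.23, 0.11 and 0.12 in mice 1 to 4 and -0.09 in the pool, with the Fra-1hep channel above background on 0 arrays and the control channel on 1, so the transgene cannot be checked with it.

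Among the small heat shock proteins, Hspb1 (HSP27), which binds unfolded clients and actin filaments, read -1.45, -1.34, -1.47 and -1.05 in mice 1 to 4 and -1.74 in the pool. All 5 arrays were lower than control by more than 1, and the highest of them, mouse 4, was still far from 0. Its estimate was -1.53 ± 0.09 (SE; 4 mice and 1 pool; limma adjusted p = 8.44e-05; 95% interval -1.74 to -1.33), and the call held in each of 17 alternative settings. Hspb6 (HSP20), best known from muscle, read -0.32, -0.30, -0.21 and -0.29 in the mice and -0.12 in the pool, low on every array but by far less than Hspb1. Its estimate was -0.20 ± 0.05 (limma adjusted p = 0.0337), and the call was lost in 8 of the 17 settings, among them the addition of a spread for the control pool (adjusted p = 0.103) and the omission of any 1 mouse (adjusted p from 0.0508 to 0.0705). Hspb2, the other muscle-rich member, read -0.08, -0.51, -0.18 and 0.02 in the mice and -0.15 in the pool, with mouse 4 on the other side of 0 (estimate -0.17 ± 0.10, adjusted p = 0.25). Hspb8, Hspb9 and Hspb11 lay between -0.08 and 0.06 and did not pass.

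Hspb1 and Hspb6 are also made by stromal and vascular cells of the liver, whose markers were lower as well, beside 15.4% of all features called lower. Of 12 stellate cell and fibroblast markers, 9 fell and 0 rose, with a summed signal of 18510 to 23820 in the Fra-1hep channels and 38760 to 48660 in the control channels. Of 12 endothelial markers 6 fell (15600 to 21600 against 22810 to 24540), and of 13 macrophage and monocyte markers 8 fell (33850 to 60270 against 61160 to 73850). Among 3 muscle markers above background, 1 fell, with sums of 293 to 380 against 347 to 410, and 9 further muscle markers, such as Acta1, Ckm and Mb, were not above the filter. Neutrophil markers went the other way, 9 of 11 higher and 0 lower (20170 to 59050 against 5574 to 6306), while of 12 hepatocyte markers 3 rose and 1 fell. Of 10 lymphocyte markers 4 fell (5488 to 8574 against 5507 to 9017). Of 3 genes of the adipocyte list above the filter, Cfd and Car3 fell and Lipe did not pass. Their summed signal was 16040 to 32080 against 97790 to 110300. The 5 others, such as Adipoq and Lep, were not above the filter, so this sum cannot be read as signal of adipocytes. In bulk liver, fewer cells of a type and less RNA per cell cannot be told apart, and the part of these markers in the chaperone changes was not tested.

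The cytosolic HSP90 genes were both lower. Hsp90aa1, the heat-inducible HSP90 alpha, read -0.54, -0.81, -0.72 and -0.37 in mice 1 to 4 and -0.30 in the pool. All arrays lay below control, and mice 2 and 3 were lowest. The estimate was -0.46 ± 0.09 (limma adjusted p = 0.011), which is 1.37-fold lower. Hsp90ab1, the constitutive HSP90 beta, read -0.15, -0.11, -0.07 and 0.15 in the mice and -0.57 in the pool. Here the pool was far below every mouse and mouse 4 was above 0. The estimate of -0.31 ± 0.07 passed (adjusted p = 0.0204), but the 4 mice alone averaged -0.04 (adjusted p = 0.629). Hsp90b1 (GRP94), the ER form, read 0.24, -0.33, -0.35 and -0.17 in the mice and -0.16 in the pool, higher than control in mouse 1 and lower elsewhere (estimate -0.16 ± 0.11, adjusted p = 0.339). Without mouse 1 it passed as lower (-0.22, adjusted p = 0.0456).

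No HSP70 gene passed, and their spread between mice differed widely. Hspa8 (HSC70), the constitutive cytosolic form, read 0.34, -0.29, -0.04 and 0.24 in mice 1 to 4 and -0.33 in the pool, and Hspa1a, the heat-inducible HSP70, read 0.04, -0.52, 0.01 and 0.59 in the mice and 0.25 in the pool. Both had mice on either side of 0, with mouse 2 lowest. For Hspa8 these are values of the brightest of 3 probes. The other 2 read 0.33 and 0.09 in the pool, with estimates of 0.16 and -0.05, and did not pass. Hspa1b, a near-identical copy of Hspa1a, has no named probe, and the Hspa1a signal may hold its transcripts too. Hspa9 (mortalin), the HSP70 of mitochondria, was narrow instead: -0.22, -0.07, -0.07 and -0.15 in the mice and 0.01 in the pool (estimate -0.06 ± 0.06, 95% interval -0.19 to 0.08). Hspa14 read -0.14, -0.17, -0.16 and -0.26 in the mice and -0.15 in the pool, low on all 5 arrays, and missed the threshold (estimate -0.16 ± 0.05, adjusted p = 0.066). Hspa4l, an HSP110-type exchange factor, read -0.16, 0.10, -0.04 and -0.01 in the mice and -0.33 in the pool (estimate -0.18 ± 0.06, adjusted p = 0.082). For Hspa4, of the same class, the result depended on the probe: the brightest of 3 gave -0.02 ± 0.06, and the other 2 gave -0.21 and -0.39 and passed (limma adjusted p = 0.0364 and 0.0174 over all probes).

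Hsph1 (HSP105), the heat-inducible exchange factor for HSP70, read -0.28, -0.97, -0.76 and -0.13 in mice 1 to 4 and 0.04 in the pool. On this probe, the brighter of 2, all 4 mice were low and the pool was not. Its estimate was -0.25 ± 0.15 (limma adjusted p = 0.268), whereas the 4 mice alone averaged -0.53 (adjusted p = 0.0222). The other probe read -0.36, -0.92, -0.65 and -0.02 in the mice and -0.22 in the pool, low on all 5 arrays. It gave -0.35 (limma adjusted p = 0.126 over all probes). Hspd1 (HSP60) and Hspe1 (HSP10), which form the mitochondrial folding cage, are transcribed from a shared promoter. Their brightest probes did not move alike across dye orientations. Hspd1 read 0.13, 0.17, 0.09 and 0.15 in the mice and -0.39 in the pool, with the mice all above 0 and the pool below it (estimate -0.13 ± 0.05, adjusted p = 0.111). Hspe1 read -0.01, -0.01, 0.06 and 0.02 in the mice and 0.20 in the pool (estimate 0.11 ± 0.05, adjusted p = 0.17), and 1 of its 3 probes passed as higher when tested by itself (0.22, adjusted p = 0.0446).

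**Figure D2:**
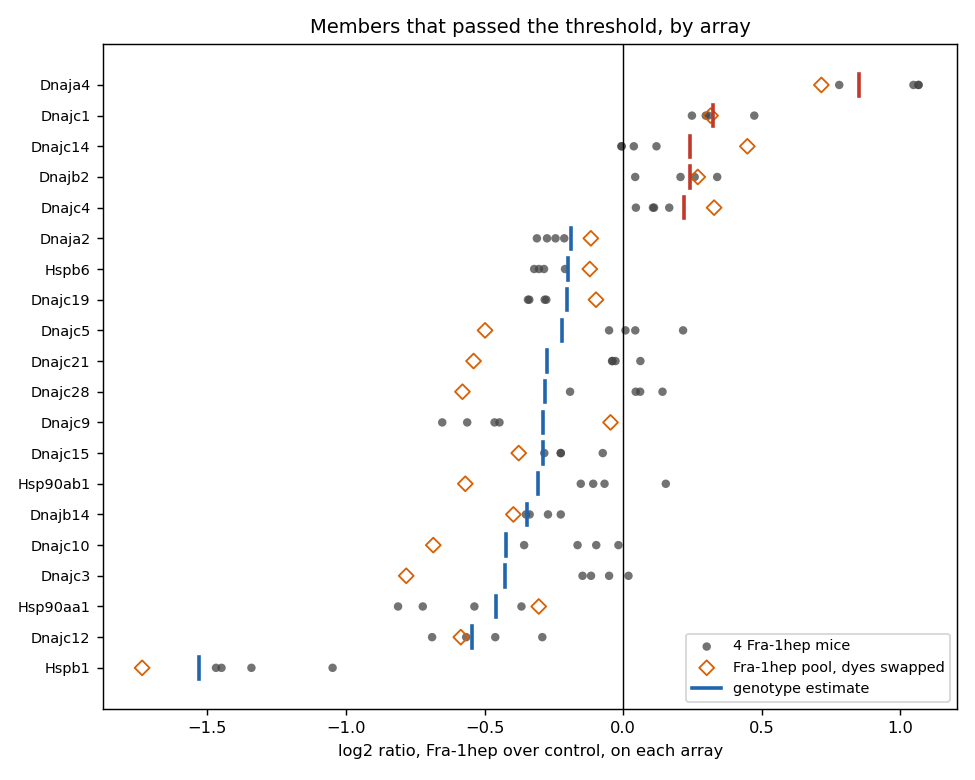
Log2 ratio of Fra-1hep over control on each array (x axis) for the 20 members that passed; filled points are the 4 mice, open diamonds the pool with swapped dyes, and vertical bars the genotype estimate (red higher, blue lower). Hspb1, Dnajc12 and Hsp90aa1 at the bottom and Dnaja4 and Dnajc1 at the top have all 5 arrays on one side of 0, while for Dnajc5, Dnajc21, Dnajc28, Dnajc3 and Hsp90ab1 the diamond lies apart at -0.50 to -0.78.

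Among J-domain proteins of the Dnaja class, Dnaja4, which in mouse has been described as a target of the sterol-regulated factor SREBP, read 1.05, 0.78, 1.07 and 1.07 in mice 1 to 4 and 0.72 in the pool. All arrays were above control, with mouse 2 below the other mice. The estimate was 0.85 ± 0.07 (limma adjusted p = 0.000441; 95% interval 0.68 to 1.02), and the call held in all 17 alternative settings. Dnaja2, a general cytosolic partner of HSC70, read -0.31, -0.24, -0.27 and -0.21 in the mice and -0.12 in the pool, low on all arrays (estimate -0.19 ± 0.05, adjusted p = 0.0389), but 12 of the 17 settings ended that call, among them the omission of any 1 mouse (adjusted p from 0.0574 to 0.0853). Dnaja1, its heat-inducible relative, read -0.14, -0.51, -0.04 and 0.05 in the mice and -0.37 in the pool, with mouse 4 above 0 (estimate -0.27 ± 0.10, adjusted p = 0.1). Dnaja3, a mitochondrial J protein, lay at -0.05 ± 0.07.

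In the Dnajb class, Dnajb14, an ER-membrane J protein that faces the cytosol, read -0.27, -0.34, -0.23 and -0.35 in mice 1 to 4 and -0.40 in the pool. Mice and pool lay close together, and the estimate was -0.35 ± 0.06 (limma adjusted p = 0.0054). Dnajb2, best known from neurons, read 0.04, 0.21, 0.34 and 0.26 in the mice and 0.27 in the pool, high on all arrays and least so in mouse 1 (estimate 0.24 ± 0.07, adjusted p = 0.0399). That call ended without mouse 2, 3 or 4 (adjusted p = 0.0601, 0.0771 and 0.0834). Dnajb1 (HSP40), the heat-inducible partner of HSP70, read -0.17, -0.80, -0.25 and 0.12 in the mice and -0.15 in the pool, with mouse 2 far below the others (estimate -0.21 ± 0.15, adjusted p = 0.33). Dnajb11 (ERdj3), a partner of BiP in the ER, read 0.13, 0.81, 0.49 and 0.09 in the mice and 0.38 in the pool. It was higher on all 5 arrays but by unlike amounts (estimate 0.38 ± 0.13, adjusted p = 0.0771), and it passed on the mice alone (adjusted p = 0.0449).

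The Dnajc class, whose members share the J domain and little else, held 12 of the 20 calls. Dnajc12, which binds aromatic amino acid hydroxylases such as the phenylalanine hydroxylase of liver, read -0.29, -0.57, -0.69 and -0.46 in mice 1 to 4 and -0.59 in the pool. All 5 arrays were lower, with mouse 1 nearest to 0 (estimate -0.54 ± 0.08, 1.46-fold, limma adjusted p = 0.004). Dnajc1, an ER-membrane J protein, read 0.47, 0.31, 0.25 and 0.30 in the mice and 0.32 in the pool and was high throughout (estimate 0.32 ± 0.06, adjusted p = 0.0106). Dnajc15, of the inner mitochondrial membrane, read -0.23, -0.23, -0.07 and -0.28 in the mice and -0.38 in the pool (estimate -0.29 ± 0.06, adjusted p = 0.0144; 0.0527 with a control pool spread). Dnajc9, a histone chaperone, read -0.45, -0.46, -0.65 and -0.56 in the mice and -0.05 in the pool. The mice were thus lower by far more than the pool (estimate -0.29 ± 0.06, adjusted p = 0.0155; mice alone -0.53, adjusted p = 0.000672; with a control pool spread, adjusted p = 0.0559).

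Other Dnajc calls rested largely on the pool. Dnajc3 (p58IPK), an ER co-chaperone of BiP and inhibitor of eIF2 alpha kinases, read -0.05, -0.12, -0.15 and 0.02 in mice 1 to 4 and -0.78 in the pool. Dnajc10 (ERdj5), an ER disulfide reductase, read -0.02, -0.10, -0.16 and -0.36 in the mice and -0.69 in the pool. In both genes no mouse was as low as the pool. The estimates were -0.43 ± 0.06 and -0.42 ± 0.07 (limma adjusted p = 0.00279 and 0.00741), and the means of the mice alone were -0.07 and -0.16 (adjusted p = 0.306 and 0.102). A second Dnajc10 probe gave -0.07 (adjusted p = 0.589 over all probes), and the mean of both probes gave -0.25 (adjusted p = 0.0474). Dnajc21, which acts in ribosome assembly, Dnajc28 and Dnajc5 (cysteine string protein) had pool values of -0.54, -0.58 and -0.50 and mouse means of -0.01, 0.01 and 0.05. Their mice lay between -0.19 and 0.22, around 0, and estimates were -0.28, -0.28 and -0.22 (adjusted p = 0.0113, 0.0295 and 0.0461). For Dnajc21 this was so on the brighter of 2 probes only. The other read -0.10, -0.17, -0.35 and -0.23 in the mice and -0.27 in the pool, low on every array. It gave -0.24 (limma adjusted p = 0.0326 over all probes). Dnajc28 did not pass without mouse 4 (adjusted p = 0.0569), nor Dnajc5 without mouse 2, 3 or 4 (adjusted p = 0.0711, 0.0919 and 0.0935) or as the mean of its 3 probes (-0.12, adjusted p = 0.137). Dnajc14 read 0.04, 0.12, -0.01 and -0.01 in the mice and 0.45 in the pool, and Dnajc4 read 0.05, 0.11, 0.11 and 0.17 in the mice and 0.33 in the pool. Both rose (0.24 and 0.22; adjusted p = 0.0191 and 0.0253), and the mice alone did not pass (adjusted p = 0.597 and 0.125). Dnajc4 also failed to pass without mouse 3 or mouse 4 (adjusted p = 0.0596 and 0.0576). The other Dnajc14 probe gave -0.02 (adjusted p = 0.866 over all probes), and averaging its 2 probes ended the call (0.11, adjusted p = 0.194).

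For Dnajc19, a J protein of the mitochondrial import motor, its 2 probes passed in opposite directions; it was chosen after its values were seen. The brighter probe read -0.28, -0.28, -0.34 and -0.34 in mice 1 to 4 and -0.10 in the pool (estimate -0.20 ± 0.05, adjusted p = 0.0287; 0.0687 without mouse 3 and 0.0645 without mouse 4). The dimmer probe, designed on another transcript, read 0.96, 0.72, 0.85 and 0.79 in the mice and -0.37 in the pool (estimate 0.23 ± 0.06, adjusted p = 0.035 over all probes). The mice disagreed with the pool in sign on that probe, and the gene is counted as lower here by the rule of the brightest probe alone. Of the 18 members with more than 1 kept probe, 5 had estimates of both signs. The 12 Dnajc members that did not pass lay between -0.17 and 0.17.

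**Figure D3:**
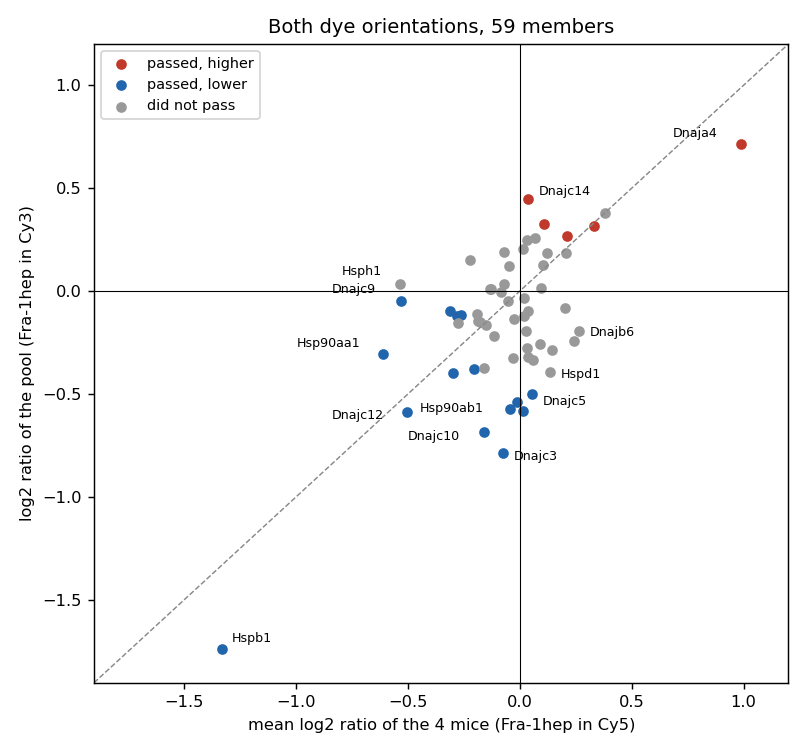
Mean log2 ratio of the 4 mice, with Fra-1hep RNA in Cy5 (x axis), against the log2 ratio of the Fra-1hep pool in Cy3 (y axis) for the 59 members; the dashed line marks equal values, red and blue points passed as higher and lower. Hspb1 at -1.33 and -1.74 and Dnaja4 at 0.99 and 0.72 lie near the line, Dnajc3 at -0.07 and -0.78 lies far below it, and Hsph1 at -0.53 and 0.04 lies above it. Each member is shown by its brightest probe.

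The difference between mice and pool therefore bears on many of the calls. Of the 20 calls, 14 had the same sign on all 5 arrays, a kind of call made for 22.1% of all features. Without the swapped array 18 members passed (35.9% of features did), of which 12 were among the 20; the 8 calls lost were Dnajc3, Dnajc4, Dnajc5, Dnajc10, Dnajc14, Dnajc21, Dnajc28 and Hsp90ab1, and the 6 gained were Dnajb6, Dnajb11, Dnajb12, Dnajc18, Hspa14 and Hsph1. In 9 of 59 members (15.3%) all 4 mice lay on one side of 0 and the pool on the other, as in 16.4% of features. With a spread for the 5 control mice added, 9 of the 20 calls were kept, and 13.3% of features passed. The calls lost then were Dnaja2, Dnajb2, Dnajc4, Dnajc5, Dnajc9, Dnajc14, Dnajc15, Dnajc19, Dnajc28, Hsp90ab1 and Hspb6 (adjusted p from 0.0527 to 0.131). Dye and the make-up of the pool cannot be told apart here.

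Some members that did not pass spread widely from mouse to mouse. Hspa5 (BiP), the HSP70 of the ER and main target of the unfolded protein response, read 1.06, -0.15, -0.41 and 0.46 in mice 1 to 4 and -0.24 in the pool. Mouse 1 was far above control and mouse 4 above it, while mice 2 and 3 were below. The estimate was 0.00 ± 0.25 with a 95% interval from -0.58 to 0.58 (limma adjusted p = 0.998), so the data do not show that Hspa5 was unchanged. The standard deviation of the 4 mice for Hspa5 was 0.66, above 99.3% of all features; the median feature had 0.12. It was also wide for Dnajb9 (ERdj4; 0.57), Hspa1a (0.45), Hsph1 (0.39), Dnajb1 (0.39), Dnajb11 (0.34), Hspa8 (0.28), Hsp90b1 (0.27), Hspa13 (0.27) and Dnaja1 (0.25). These 10 of 59 members (16.9%) lay above the 90th percentile of features, although the median member (0.11) was like the median feature.

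**Figure D4:**
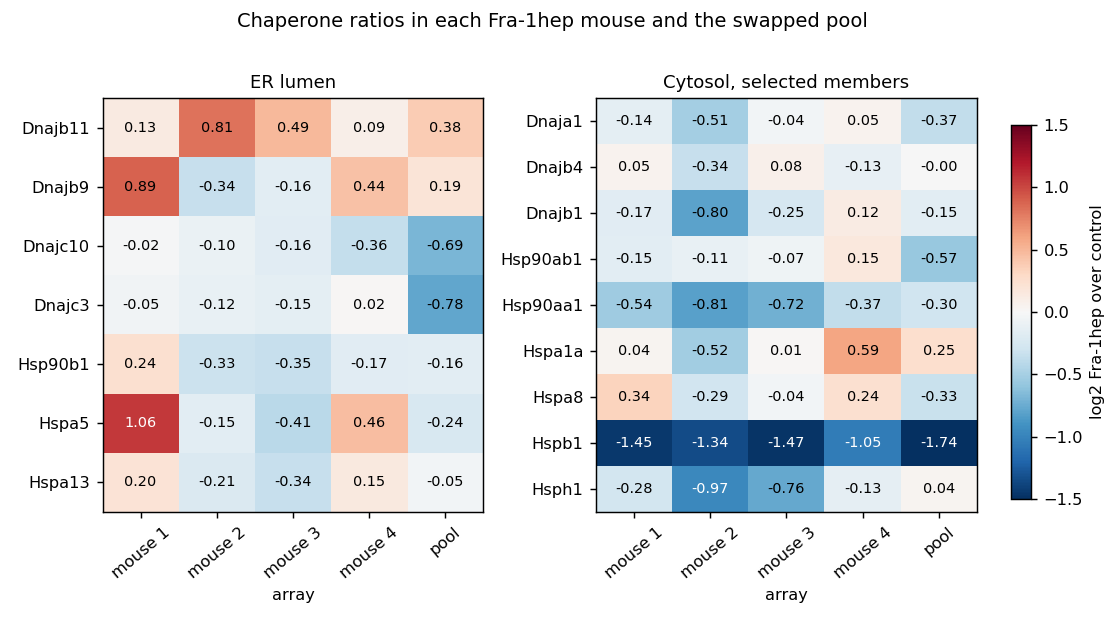
Log2 Fra-1hep over control in each of the 4 mice and in the swapped pool (columns). Shown are 7 ER-lumen members (left) and 9 selected cytosolic members (right). Of the latter, Hspa8 and Hsp90ab1 are constitutive. Red is higher and blue lower than the control pool, and the number is the value. Mouse 1 has the highest of the 4 mouse values in 5 of 7 ER members. Mouse 2 has the lowest in 7 of the 9 selected cytosolic members, while Hspb1 is dark blue on all 5 arrays.

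Which mouse was high or low is given for both sets, which were drawn up after values were seen and were not tested against each other. Among 7 ER-lumen members, mouse 1 was highest in 5 and mouse 3 lowest in 4. Among 9 selected cytosolic members, which are not all those of the cytosol, mouse 4 was highest in 7 and mouse 2 lowest in 7. Over all 59 members, mice 1 to 4 were highest in 20, 8, 13 and 18 and lowest in 15, 19, 14 and 11. Over all 21485 features measured on all arrays, mice 1 to 4 were highest in 5952, 6244, 4497 and 4792. They were lowest in 6344, 5013, 4935 and 5193. Dnajb9, an ER co-chaperone induced by the unfolded protein response, read 0.89, -0.34, -0.16 and 0.44 in the mice and 0.19 in the pool, the same pattern of high mice 1 and 4 as Hspa5. A wider list of 34 ER folding genes had mouse 1 highest in 23 and mouse 3 lowest in 20. Mouse 1 is also the mouse on the slide with more spots above background, so mouse and slide cannot be told apart.

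Regulators and partners of these chaperones were read from the same fit, in which 26.6% of all features passed. Of 4 genes for heat shock factors and their binding protein Hsbp1, 0 passed (limma; 1 at an unadjusted p of 0.05, Hsbp1); Hsf1 read 0.00, -0.15, 0.05 and 0.04 in mice 1 to 4 and 0.24 in the pool (estimate 0.11 ± 0.06, adjusted p = 0.224). Of 23 HSP90 co-chaperones 4 rose and 2 fell (26.1% called). Of the rises, that of Nudc rested on the pool (mice -0.04 to 0.14, pool 0.47). Rpap3, which links HSP90 to assembly of RNA polymerases, lay between 1.00 and 1.42 on all 5 arrays (estimate 1.15 ± 0.09, adjusted p = 0.000313), and Fkbp4, an immunophilin of steroid receptors, rose by 0.26, while Chordc1 and Unc45b fell by 0.40. Of 13 HSP70 partners outside the DNAJ family 2 rose, the exchange factors Sil1 of the ER (0.35) and Grpel1 of mitochondria (0.23), and 0 fell (15.4% called). Of 16 chaperonin and prefoldin subunits 3 rose (Cct6b 0.55, Cct7 0.35 and Tcp1 0.27) and 2 fell, with Cct6a at -0.39 (31.2% called). Tcp1 read -0.09 to 0.06 in the mice and 0.54 in the pool. The other fall, Pfdn1, read 0.27 to 0.47 in the mice and -0.89 in the pool. The calls of Tcp1 and Pfdn1 thus rested on the pool.

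Genes of ER folding, stress signalling and mitochondrial folding are likewise given beside that 26.6%. Of 34 ER folding and unfolded protein response genes 4 rose and 3 fell (20.6% called, median 0.08). Wfs1, Sil1, Ero1b and Edem2 rose by 0.69, 0.35, 0.44 and 0.26. Of the 3 falls, those of Atf6b (mice 0.07 to 0.17, pool -0.49) and Edem3 (mice -0.12 to 0.07, pool -0.45) rested on the pool. The other fall, Pdia3, read 0.13, -0.28, -0.25 and -0.05 in mice 1 to 4 and -0.48 in the pool. Of 22 genes of the integrated stress response 3 rose, 4 fell and 15 did not pass (31.8% called). The 4 of smallest p were asparagine synthetase Asns (5.87 ± 0.24), Vldlr (0.99), Nupr1 (-1.31) and Gdf15 (-2.10 ± 0.16). The changes of Asns and Gdf15 were larger in size than that of any tested member, of which Hspb1 at -1.53 moved most. Of 14 mitochondrial proteases and folding factors 2 rose, Lonp1 (0.41) and Oma1 (0.21), and 1 fell, Clpb (-0.31, 21.4% called). The call of Oma1 rested on the pool (mice -0.05 to 0.09, pool 0.40).

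The calls are set beside the promoter matches, where 33.9% of all tested members and 26.6% of all features were called. The groups are small, and whether the elements divide the calls was not tested. Of 12 tested members with a 2-unit heat shock element 1 rose (Dnaja4), 3 fell and 8 did not pass. The falls were those of Hspb1, Hspb6 and, largely on the strength of the pool, Dnajc10. Of the 4 with a 3-unit element 0 passed (limma; 1 at an unadjusted p of 0.05, Hspd1), and of the 3 with an ER stress response element Dnajc3 fell, on the strength of the pool, while Hspa5 and Hsp90b1 did not pass.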

How the data were processed

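The spot intensity values were deposited as extracted by Agilent Feature Extraction 10.7 per the submitters' processing notes (10.7.3.1 per the file headers), with a log10 ratio of Cy5 over Cy3 per the file headers. The deposited table holds log2 ratios of Fra-1hep over control (slope 1.00 or -1.00 on the scanner ratios of 23068 probes), not centred, with array medians of 0.13, 0.08, 0.04, 0.13 and -0.04; further steps are not given in the sources used here. Per the labels, RNA integrity was above 7.8 and 100 ng was labelled.

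Median signals were corrected with normexp (offset 50) and loess within arrays (62976 spots each; 177 outlier spots left out, 0 saturated). Probes were named by accession. A probe was kept if Fra-1hep or control RNA lit it well above background on 3 arrays or more (28115 of 55681), and the brightest stood for its gene. limma 3.58.1 (R 4.3.3) fitted genotype and dye on all 5 arrays (3 residual and 4.02 prior degrees of freedom, the spread coming from the 4 mice), with Benjamini-Hochberg adjustment; the scripts were tested on simulated data. The number of arrays limits the precision (median standard error 0.067). Nothing says which mice were raised together, so p-values measure the spread between these 4 mice. The members and lists were chosen with earlier results of these data known. Members named with their values are the 12 largest rises and 12 largest falls among those called, up to 3 of smallest p in each family and 13 well-known chaperones; Dnajb9, Dnajc19, Hspa4 and any others were chosen after their values were seen. Related lists are named by up to 4 genes of smallest p, with Pfdn1, Nudc, Atf6b, Edem3 and Pdia3 added after their values were seen. Alternatives varied dye term, swapped array, control pool spread, minimum change, signals, background, centring, filter, probes, array weights and left-out mice.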

Additional observations from a re-analysis of the deposited data

Results flagged for a closer look

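Among the 4 Fra-1hep mice, 4 values of 39 groups tested stood far from the rest; chance alone flags about 1 group in 20. Mouse 2 had 0.78 for Dnaja4, below 3 mice at 1.05 to 1.07. Mouse 3 had 0.062 for Dnajc21, where the other mice lay between -0.04 and -0.03. On the dimmer Dnajc21 probe mouse 3 was instead the lowest mouse, at -0.35. Mouse 2 also had a Hspb family median of -0.30, beside -0.12 to -0.10 in the other mice, and mouse 4 had a Dnajb family median of 0.19, beside 0.05 to 0.08.

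In 3 named members every mouse lay on one side of 0 and the pool with swapped dyes on the other. The pool read 0.0093 for Hspa9 (mice -0.22 to -0.07), -0.39 for Hspd1 (mice 0.09 to 0.17) and 0.035 for Hsph1 (mice -0.97 to -0.13). On the other Hsph1 probe the pool read -0.22, below 0 like the mice. The difference between mice and pool was not tested.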

How the results depend on the processing

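Hspb1 and Dnaja4 kept their calls in all 17 settings, and Dnajb14, Dnajc1, Dnajc12 and Hsp90aa1 in all but the test against a minimum change of 1.2-fold. That test left 1 member higher and 1 lower (1052 features, 7 genes of the related lists, against 29 in the reported fit). Adding a spread for the control pool left 2 higher and 7 lower (2853 features, 14 related genes). Median centring in place of loess left 2 higher and 9 lower. With no dye term the medians of the Hsp90, Dnajb and Dnajc families were -0.15, 0.15 and -0.031, and without the swapped array -0.15, 0.20 and 0.017; in the latter Dnajc28 and Dnajc5 turned to 0.014 and 0.055. The Dnajb median was -0.042 with no filter on dim probes, and the Dnajc median -0.094 as the mean of all kept probes. The cause of these changes was not tested. Leaving out each mouse in turn gave 3 to 5 members higher (3 without mouse 3 and 3 without mouse 4) and 10 to 14 lower (10 without mouse 4). Leaving out mouse 1, which leaves a single slide, gave 5 higher and 14 lower. Testing every kept probe by itself, an alternative chosen after seeing the data, gave 7 members with a higher and 16 with a lower probe. No paired analysis was possible because the control side is 1 pool. With 4 mice and a median standard error of 0.066 for members, changes within the mouse-to-mouse spread of genes such as Hspa5 were not detectable.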
